A study of Mus musculus with 12 samples.

Results

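The transcripts of 10 enzymes of glycolysis were followed in CD11b-positive microglia from the cerebral cortex of 12 mice. The genes were taken by name from the counted genes and are, in pathway order, Hk2, Gpi1, Pfkp, Aldoa, Tpi1, Gapdh, Pgk1, Pgam1, Pkm and Ldha, 10 of the 55487 genes that were listed, and all 10 passed the filter on low counts that left 15425 genes. The mice were male and formed 4 groups of 3, in which each library came from another mouse. The groups were wild-type (WT, C57BL/6J) mice given PBS as vehicle (veh), WT mice given rh Bri2 BRICHOS R221E, AppNL-G-F mice given veh and AppNL-G-F mice given rh Bri2 BRICHOS R221E. AppNL-G-F mice carry the Swedish, Iberian and Arctic familial Alzheimer mutations together with a humanized amyloid β sequence in the mouse App gene, so that App is expressed from its own promoter and no transgene is overexpressed. The rh Bri2 BRICHOS R221E protein, called BRICHOS below, is a recombinant human variant of the chaperone domain of Bri2, given intravenously at 10 mg/kg in 24 injections over 12 weeks from 9 months of age, and all mice were then kept for 4 weeks without treatment. The comparisons ask how the strain alters the enzymes, in mice on either treatment, and whether BRICHOS alters them in either strain.

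Glycolysis converts glucose to pyruvate in the cytosol, with a small yield of ATP and NADH, and lactate dehydrogenase regenerates NAD+ by turning pyruvate into lactate. Hexokinase, phosphofructokinase and pyruvate kinase catalyse the steps that are practically irreversible, whereas the enzymes between them work close to equilibrium. In macrophages and microglia, glycolysis is known to increase with activation, and many of its genes are known targets of the hypoxia-inducible factor (HIF), which binds short DNA elements with the core ACGTG or GCGTG.

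In GRCm38 coordinates of the GENCODE annotation, Hk2 (Ensembl ENSMUSG00000000628) spans chr6:82725025-82774454, Gpi1 (ENSMUSG00000036427) chr7:34201330-34230336, Pfkp (ENSMUSG00000021196) chr13:6579768-6648777, Aldoa (ENSMUSG00000030695) chr7:126795234-126800751 and Tpi1 (ENSMUSG00000023456) chr6:124810586-124814296, all on the minus strand. Gapdh (ENSMUSG00000057666) spans chr6:125161715-125166467 on the minus strand, Pgk1 (ENSMUSG00000062070) chrX:106187100-106203699, Pgam1 (ENSMUSG00000011752) chr19:41911923-41918660, Pkm (ENSMUSG00000032294) chr9:59656368-59679375 and Ldha (ENSMUSG00000063229) chr7:46841475-46855627, the last 4 on the plus strand. Gapdh has 75 annotated pseudogene copies with at least 95% identity, which held 1.46% of the summed counts of Gapdh and these copies. The other members had at most 4 such copies, with no more than 0.297% of the counts of the member and its copies. Pkm overlaps the gene Gm49759 on the same strand, which was counted at 2.59% of Pkm. The counts of Gapdh and Pkm are uncertain because the handling of shared reads is not given in the sources used here. These shares do not bound the uncertainty, since they cover only reads that were assigned to a gene. Hk2, Gpi1, Pfkp, Aldoa, Tpi1 and Gapdh each overlap 1 gene on the opposite strand. The strand setting of the counting is not given either, so that their counts may include reads of these genes.

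The sequences before the transcription starts are shown for 5 members, because they carry the DNA cores through which HIF is known to act on glycolytic genes. Pgk1, Ldha and Aldoa were among the enzymes that were upregulated in both strain comparisons, and Hk2 and Pfkp were not. Each line gives the 250 bases upstream of a RefSeq start in GRCm38.p6, read 5′ to 3′ on the strand of the gene, and capitals mark every match to ACGTG or GCGTG on either strand (as CACGT or CACGC when on the opposite one).
Pgk1, chrX:106186850-106187099, plus strand: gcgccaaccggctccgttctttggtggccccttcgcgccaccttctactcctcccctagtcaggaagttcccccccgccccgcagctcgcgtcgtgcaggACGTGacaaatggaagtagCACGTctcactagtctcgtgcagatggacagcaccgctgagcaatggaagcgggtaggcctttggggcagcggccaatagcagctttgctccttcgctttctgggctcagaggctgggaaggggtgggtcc
Ldha, chr7:46845554-46845803, plus strand: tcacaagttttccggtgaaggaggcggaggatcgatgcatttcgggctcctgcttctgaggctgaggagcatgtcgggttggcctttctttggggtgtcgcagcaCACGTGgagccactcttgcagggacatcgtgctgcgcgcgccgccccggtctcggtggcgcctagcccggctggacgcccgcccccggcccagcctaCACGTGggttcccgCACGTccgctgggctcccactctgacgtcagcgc
Aldoa, chr7:126799255-126799504, minus strand: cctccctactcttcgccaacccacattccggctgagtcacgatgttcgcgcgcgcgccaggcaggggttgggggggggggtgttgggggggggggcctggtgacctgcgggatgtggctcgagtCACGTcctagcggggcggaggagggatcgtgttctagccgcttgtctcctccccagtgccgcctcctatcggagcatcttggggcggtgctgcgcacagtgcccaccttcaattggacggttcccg
Hk2, chr6:82774455-82774704, minus strand: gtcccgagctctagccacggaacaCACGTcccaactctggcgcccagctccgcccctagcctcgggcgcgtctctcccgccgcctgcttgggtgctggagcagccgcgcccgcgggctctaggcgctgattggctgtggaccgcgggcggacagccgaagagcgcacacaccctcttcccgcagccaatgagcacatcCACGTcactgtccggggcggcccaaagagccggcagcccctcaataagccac
Pfkp, chr13:6648772-6649021, minus strand: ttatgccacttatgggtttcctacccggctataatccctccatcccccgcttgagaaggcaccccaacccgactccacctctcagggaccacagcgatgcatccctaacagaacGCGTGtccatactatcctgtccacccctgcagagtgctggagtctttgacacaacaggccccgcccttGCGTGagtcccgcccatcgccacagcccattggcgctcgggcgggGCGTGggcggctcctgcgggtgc

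In these windows, Pgk1 held ACGTG at positions -150 and -131 counted from the start, Aldoa at -126 and Hk2 at -226 and -52. Another window of Aldoa, chr7:126799179-126799428, overlaps the one shown and held the same ACGTG, there at -202. A further one, chr7:126800448-126800697, held neither core. The Ldha window shown held 5 matches to ACGTG, of which 4 belong to the 2 copies of the palindrome CACGTG, where the matches on both strands overlap. The bases checked after its start were found in no GENCODE transcript of Ldha. Those after the start of a second window of Ldha, chr7:46846832-46847081, were found in one, and that window held 0 matches to ACGTG and 1 to GCGTG. Pfkp held no ACGTG and 3 matches to GCGTG. Windows were found for all 10 members, 14 windows in all, and ACGTG was present before 6 of the 10 genes, GCGTG before 4 and either core before 8. Among all 27025 genes with a window of this length, 18.5% held ACGTG, 30.9% GCGTG and 41.5% either. The 5 windows shown have a GC content of 62.8% to 69.6% against a median of 52.4% over all windows, and the cores contain CG. Gpi1 and Tpi1 held neither core. A match is a run of letters, and binding was not measured here.

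The libraries held between 12433402 and 17889654 counts. The 10 members took 0.192% to 0.228% of all counts in WT libraries and 0.398% to 0.421% in AppNL-G-F libraries. Each library had at least 188 counts on every member, the lowest being Pfkp in a BRICHOS-treated AppNL-G-F mouse. The 5 microglial markers reported here (P2ry12, Tmem119, Cx3cr1, Csf1r and Itgam) were present in every library, with summed levels of 16079 to 18363 CPM (counts scaled by the library total and the TMM factor) in WT and 12042 to 12909 CPM in AppNL-G-F mice, and 5 of them were called downregulated in veh-treated and 4 in BRICHOS-treated AppNL-G-F mice. CD11b is also known on neutrophils, monocytes and border macrophages. Markers of other cell types differed between groups. The 8 astrocyte markers summed to 482 to 746 CPM in WT mice, 1286 to 3952 CPM in veh-treated and 637 to 1692 CPM in BRICHOS-treated AppNL-G-F mice, and the 4 choroid plexus markers summed to 829 to 6603 CPM in WT mice and 619 to 1905 CPM in AppNL-G-F mice, with none of these markers at 0. The 6 oligodendrocyte markers summed to 9409 to 16582 CPM in veh-treated and 4013 to 14995 CPM in BRICHOS-treated WT mice, against 2975 to 5367 CPM and 4292 to 5799 CPM in AppNL-G-F mice, and 2 of them were called downregulated with veh and 0 with BRICHOS. Of 5 mural cell markers 1 was called downregulated with veh and 5 with BRICHOS. With veh, 6 of 6 neutrophil, 5 of 5 border macrophage, 4 of 5 endothelial and 3 of 5 tested neuronal markers were called downregulated in AppNL-G-F mice. With BRICHOS these counts were 3, 5, 4 and 4, and 4 of 4 choroid plexus, 4 of 4 ependymal, 4 of 4 B cell, 3 of 3 erythroid and 2 of 3 monocyte markers were called downregulated, against 0, 0, 1, 0 and 1 with veh. The part of these cells in the differences between the strains was not tested beyond the fits with marker scores given below. In bulk RNA, fewer cells of a type and less RNA per cell cannot be told apart.

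Of the 10 enzymes, 8 were more than 2-fold upregulated in microglia of AppNL-G-F mice, both after veh and after BRICHOS. These were Gpi1, Aldoa, Tpi1, Gapdh, Pgk1, Pgam1, Pkm and Ldha, with increases between 2.11- and 3.19-fold in veh-treated and between 2.17- and 3.16-fold in BRICHOS-treated mice. Both comparisons used edgeR's quasi-likelihood test on raw counts, called a gene at an adjusted p-value under 0.05 over all 15425 genes, and share no library. With veh, 9 members were called upregulated and 0 downregulated, where 20.1% of all tested genes were called upregulated and 16.9% downregulated. With BRICHOS, 8 members were called upregulated and 1 downregulated, against 20.8% and 21.8% of all genes. Upregulation in both comparisons was found for 8 members and for 15.1% of all genes, and upregulation by more than 2-fold in both for the same 8 members and 3.86% of all genes. The median log2 fold change of the 10 members was 1.22 with veh and 1.28 with BRICHOS, against -0.022 and -0.042 over all tested genes. In each comparison, the AppNL-G-F libraries of these 8 members lay above all WT libraries, as was the case for 25.5% of genes with veh and 25.3% with BRICHOS.

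**Figure D1:**
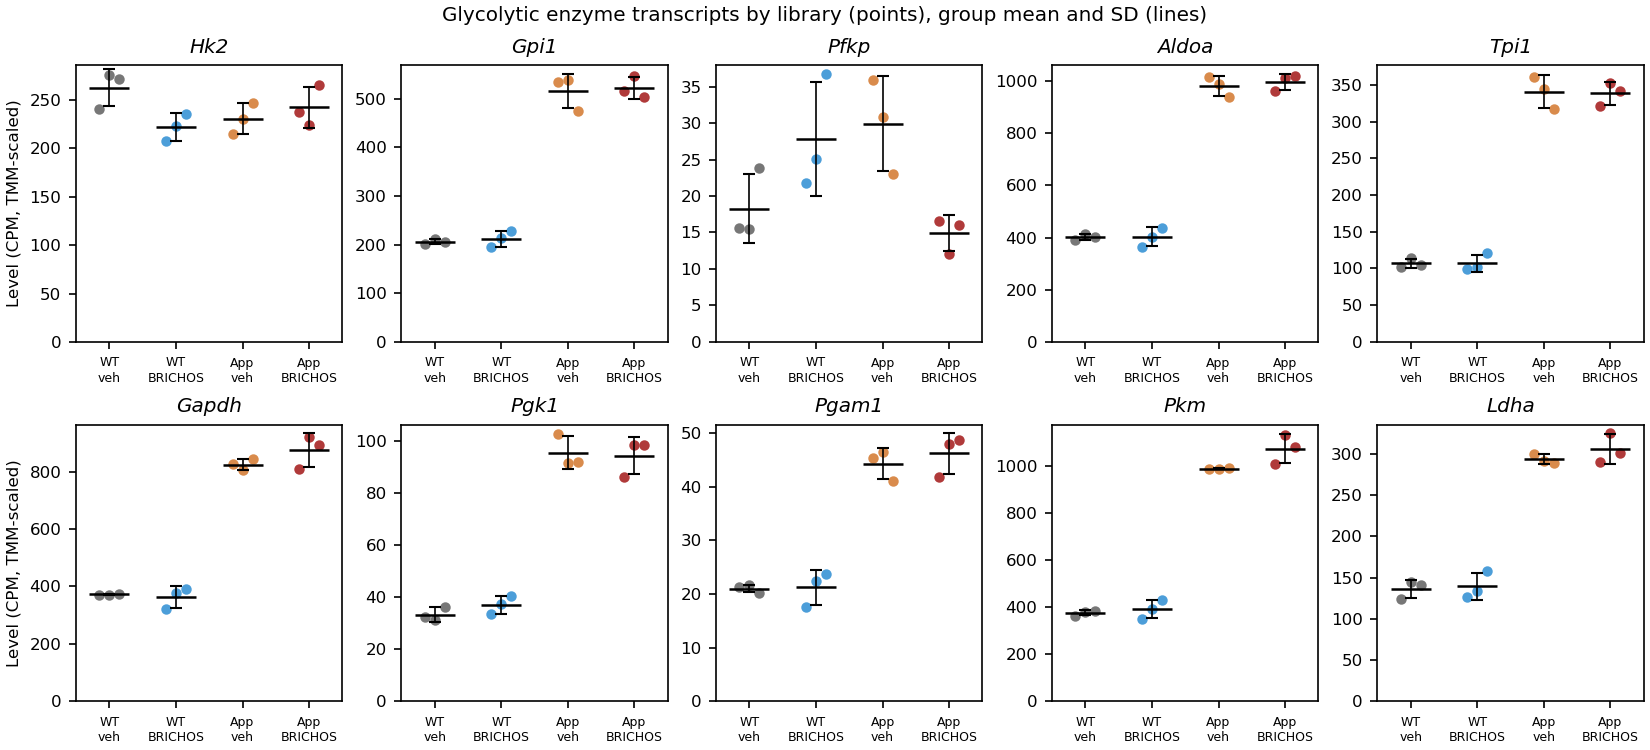
Levels of the 10 enzymes in each library, in CPM scaled with TMM factors, with a linear axis from 0 in each panel. Points are mice, the wide line is the group mean and the bars are 1 SD (n = 3). In 8 panels all 6 AppNL-G-F libraries sit above all 6 WT libraries, and in the panels of Hk2 and Pfkp the strains overlap.

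Hk2 encodes hexokinase 2, the inducible hexokinase that phosphorylates glucose and can bind to mitochondria. Its level was 241, 276 and 272 CPM in veh-treated WT mice, 215, 230.2 and 247 CPM in veh-treated AppNL-G-F mice, 207, 224 and 235 CPM in BRICHOS-treated WT mice and 238, 224 and 266 CPM in BRICHOS-treated AppNL-G-F mice. The strains overlapped on both treatments, and Hk2 was not called in either comparison. The log2 fold change was -0.19 ± 0.081 (SE, adjusted p = 0.0909, edgeR) with veh and 0.13 ± 0.081 (adjusted p = 0.233) with BRICHOS. With veh it was called, as lower in AppNL-G-F mice, under library totals in place of TMM factors (-0.38, adjusted p = 0.00287, edgeR), upper-quartile factors (-0.24, adjusted p = 0.0384), the replicate block (-0.19, adjusted p = 0.0234) and without the first veh-treated WT library (-0.25, adjusted p = 0.0463). Under library totals the value with BRICHOS was -0.14 and the median of all genes -0.31, so that relative to the median of all genes Hk2 stood at 0.17 in both scalings with BRICHOS, and at -0.17 in both with veh.

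Gpi1 encodes glucose-6-phosphate isomerase, which makes fructose phosphate. It rose from 201, 211 and 206 CPM in veh-treated WT mice to 534, 537 and 475 CPM in veh-treated AppNL-G-F mice, a log2 fold change of 1.32 ± 0.069 (adjusted p = 7.39e-08, edgeR). With BRICHOS the values were 195, 213 and 228 CPM in WT and 515, 547 and 503 CPM in AppNL-G-F mice (1.3 ± 0.069, adjusted p = 6.63e-08). The lowest AppNL-G-F library was thus more than 2-fold above the highest WT library.

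Pfkp encodes the platelet-type phosphofructokinase, one of the isoenzymes that commit sugar to glycolysis, and was per exon length the least abundant member in all 4 groups. It stood at 15.6, 15.5 and 23.8 CPM in veh-treated WT mice and 35.9, 30.8 and 23.0 CPM in veh-treated AppNL-G-F mice, where the groups overlapped by 1 library in each. The difference was called, with a log2 fold change of 0.71 ± 0.24 (adjusted p = 0.0348, edgeR), but the call was lost when any one of 4 libraries was left out, namely replicate 1 or 2 of either group (adjusted p = 0.0833 to 0.125). With BRICHOS the direction was the opposite, with 21.7, 25.1 and 36.7 CPM in WT mice and 16.6, 12.0 and 16.1 CPM in AppNL-G-F mice, and all AppNL-G-F libraries were lower (-0.90 ± 0.24, adjusted p = 0.0104, edgeR).

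Aldoa encodes aldolase A, which splits fructose bisphosphate into triose phosphates. Its libraries read 391, 415 and 403 CPM in veh-treated WT and 1017, 989 and 941 CPM in veh-treated AppNL-G-F mice (1.29 ± 0.067, adjusted p = 7.85e-08, edgeR). After BRICHOS they read 366, 404 and 438 CPM in WT and 961, 1010.3 and 1019 CPM in AppNL-G-F mice (1.31 ± 0.067, adjusted p = 5.74e-08). The difference between the strains exceeded the SD within each group by a wide margin, since the largest SD was 38.7 CPM.

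Tpi1 encodes triosephosphate isomerase, which interconverts these triose phosphates, and had the highest fold change of the 10 members in both comparisons. It rose from 102, 114 and 104 CPM to 361, 345 and 317 CPM with veh, which is 3.19-fold (1.67 ± 0.082, adjusted p = 4.53e-08, edgeR). With BRICHOS it was 98.8, 102 and 120.4 CPM in WT and 321, 352 and 342 CPM in AppNL-G-F mice, which is 3.16-fold (1.66 ± 0.082, adjusted p = 4.25e-08). Its 95% interval with veh, 1.49 to 1.85, lay above that of Pgam1, 0.84 to 1.31.

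Gapdh encodes glyceraldehyde-3-phosphate dehydrogenase, the step that yields NADH, and is widely used as a reference gene. It measured 371, 371 and 374 CPM in veh-treated WT mice and 825, 806 and 843 CPM in veh-treated AppNL-G-F mice (1.15 ± 0.074, adjusted p = 3.77e-07, edgeR). With BRICHOS it measured 322, 375 and 392 CPM and 809, 921 and 894 CPM (1.27 ± 0.074, adjusted p = 1.62e-07). Gapdh was therefore not constant between the strains in these cells.

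Pgk1 encodes phosphoglycerate kinase, which makes the first ATP of the pathway, and its promoter window with ACGTG at -150 and -131 is printed above. It rose from 32.4, 31.0 and 36.4 CPM to 103, 91.5 and 92.0 CPM with veh (1.52 ± 0.090, adjusted p = 1.97e-07, edgeR). With BRICHOS it stood at 33.4, 37.2 and 40.4 CPM in WT and 86.1, 98.5 and 98.3 CPM in AppNL-G-F mice (1.35 ± 0.089, adjusted p = 4.5e-07). Pgk1 had the second highest fold change in veh-treated mice and, after BRICHOS, the third highest.

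Pgam1 encodes phosphoglycerate mutase, and its level was low, with 21.2, 21.6 and 20.2 CPM in veh-treated WT and 45.4, 46.5 and 41.0 CPM in veh-treated AppNL-G-F mice. The log2 fold change of 1.08 ± 0.11 (adjusted p = 1.32e-05, edgeR) was the smallest of the 8. With BRICHOS the libraries read 17.6, 22.4 and 23.8 CPM and 41.9, 48.0 and 48.7 CPM (1.12 ± 0.11, adjusted p = 8.6e-06), and the groups were again separate.

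Pkm encodes the muscle-type pyruvate kinase, which forms pyruvate and ATP; its splice forms M1 and M2 were not separated by counts per gene. Its libraries were very similar within the veh-treated groups, with 364, 378 and 385 CPM in WT and 988, 988 and 994 CPM in AppNL-G-F mice (1.4 ± 0.073, adjusted p = 7.6e-08, edgeR). With BRICHOS it was 351, 394 and 430.1 CPM in WT and 1008, 1134 and 1084 CPM in AppNL-G-F mice (1.46 ± 0.073, adjusted p = 4.52e-08).

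Ldha encodes the A subunit of lactate dehydrogenase, the form favoured in cells that release lactate. It rose from 123, 145 and 141 CPM in veh-treated WT mice to 300.4, 292 and 289 CPM in veh-treated AppNL-G-F mice (1.11 ± 0.086, adjusted p = 1.87e-06, edgeR). After BRICHOS the levels were 126, 134 and 158 CPM and 290.1, 326 and 301 CPM (1.13 ± 0.086, adjusted p = 1.32e-06), so the strains were separate on both treatments.

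**Figure D2:**
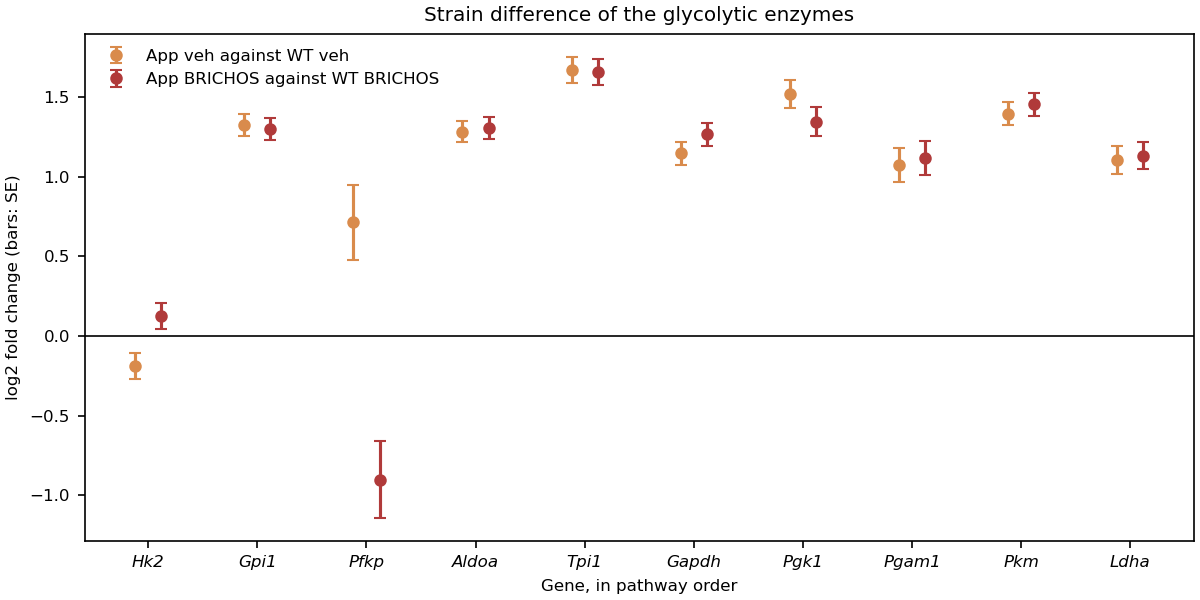
Log2 fold change of each enzyme between AppNL-G-F and WT mice, after veh and after BRICHOS, in pathway order. Points are the fitted values and bars are 1 SE (3 mice per group). The values of 8 genes lie above 1 in both comparisons, Hk2 lies near 0, and Pfkp lies at 0.71 with veh and at -0.90 with BRICHOS.

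The 8 members were also fitted beside the markers of other cell types. The AppNL-G-F mouse with the lowest astrocyte marker sum, replicate 2 of the BRICHOS group, had 637 CPM, within the range of the sums of WT mice. Single markers differed from WT mice there, as Gfap stood at 130 CPM, against 26.0 to 38.7 CPM in WT libraries, and Gja1 at 18.9 CPM, below all WT libraries. In that library Tpi1 stood at 352 CPM, Gapdh at 921 CPM and Pkm at 1134 CPM. These are values of a single library, and the cause of the difference between the strains was not tested. With the astrocyte marker score of each library as a covariate in the fit, the 8 members had log2 fold changes of 0.92 to 1.58 with veh and 1.08 to 1.63 with BRICHOS, and with the choroid plexus score 1.07 to 1.67 and 1.08 to 1.63. All 8 remained called in all 23 alternatives of each comparison (highest adjusted p = 0.00711 with veh and 0.00185 with BRICHOS, edgeR or DESeq2). With library totals in place of TMM factors the log2 fold changes of the 8 were 0.89 to 1.48 with veh and 0.85 to 1.39 with BRICHOS, and Gapdh, Pgam1 and Ldha were then below 2-fold in both comparisons. The median of all genes was -0.21 and -0.31 in that scaling, and the 8 stood 1.10 to 1.70 and 1.16 to 1.70 above it. The share of called genes that were upregulated then changed from 54.3% to 27.8% with veh and from 48.8% to 18.5% with BRICHOS, and upper-quartile factors gave 35.9% with BRICHOS.

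Per length of exon, which allows genes to be compared, the order of the members differed between the strains. In veh-treated WT mice Aldoa was highest at 138 ± 4.25 CPM per kilobase (mean ± SD, n = 3), followed by Gapdh at 90.0 ± 0.484 and Pkm at 75.2 ± 2.16. Hk2 (44.0 ± 3.25), Ldha (41.2 ± 3.42) and Tpi1 (38.8 ± 2.28) came next and overlapped with their neighbours, and Gpi1 (31.9 ± 0.807), Pgk1 (14.8 ± 1.24), Pgam1 (10.6 ± 0.365) and Pfkp (1.36 ± 0.354) were lower in that order without overlap. In veh-treated AppNL-G-F mice Aldoa led again at 337 ± 13.3, and Gapdh (199 ± 4.45) and Pkm (198 ± 0.722) could not be separated. Tpi1 (124 ± 8.16) then stood above Ldha (88.7 ± 1.82) and Gpi1 (79.9 ± 5.42), while Hk2 (38.7 ± 2.68) came after them and overlapped with Pgk1 (42.5 ± 2.82). Pgam1 (22.4 ± 1.46) and Pfkp (2.23 ± 0.487) remained lowest. The lengths are the union of all annotated exons, which is long for Pfkp (13401 bases), and this lowers its value.

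BRICHOS altered none of the 8 upregulated enzymes detectably, in either strain. In AppNL-G-F mice their log2 fold changes between BRICHOS and veh were -0.017 to 0.12, with 95% intervals that reached from -0.21 to 0.29 at most. In WT mice they were -0.034 to 0.16, with intervals from -0.22 to 0.35. The median over all 10 members was 0.039 in AppNL-G-F and 0.024 in WT mice, against 0.0078 and -0.0036 over all tested genes. The strain differences of the same genes, 1.08 to 1.67 with veh, lay outside all of these intervals. The comparisons of treatment share the veh-treated libraries with the strain comparison of veh-treated mice. At an adjusted p-value under 0.05 edgeR called 0 of the 10 members in AppNL-G-F mice (0.00648% of all genes) and 0 in WT mice (0% of all genes), whereas DESeq2's Wald test called 1 member in AppNL-G-F mice, Pfkp, and 0 in WT mice, among 116 and 80 calls over all genes.

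With an unadjusted p-value under 0.05 as the threshold, 0 members were higher and 1, Pfkp, was lower with BRICHOS in AppNL-G-F mice, against 3.18% and 7.67% of all genes. Likewise, 1 member, Pfkp, was higher in WT mice and 1, Hk2, was lower there, against 6.55% and 4.83% of all genes. This count of 2 members in WT mice became 1 to 3 when single libraries were left out. With the choroid plexus score as a covariate it was 1. In AppNL-G-F mice Pfkp was lower after BRICHOS in all 3 libraries than in any veh-treated library, with a log2 fold change of -1.01 ± 0.24 (adjusted p = 0.291, edgeR). In WT mice it was higher on average but the groups overlapped (0.61 ± 0.24, adjusted p = 0.379, edgeR). Hk2 was lower in all 3 BRICHOS-treated WT libraries than in the veh-treated ones, with a log2 fold change of -0.24 ± 0.081 (adjusted p = 0.3, edgeR), and its value in AppNL-G-F mice was 0.072 ± 0.081 (adjusted p = 0.812).

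**Figure D3:**
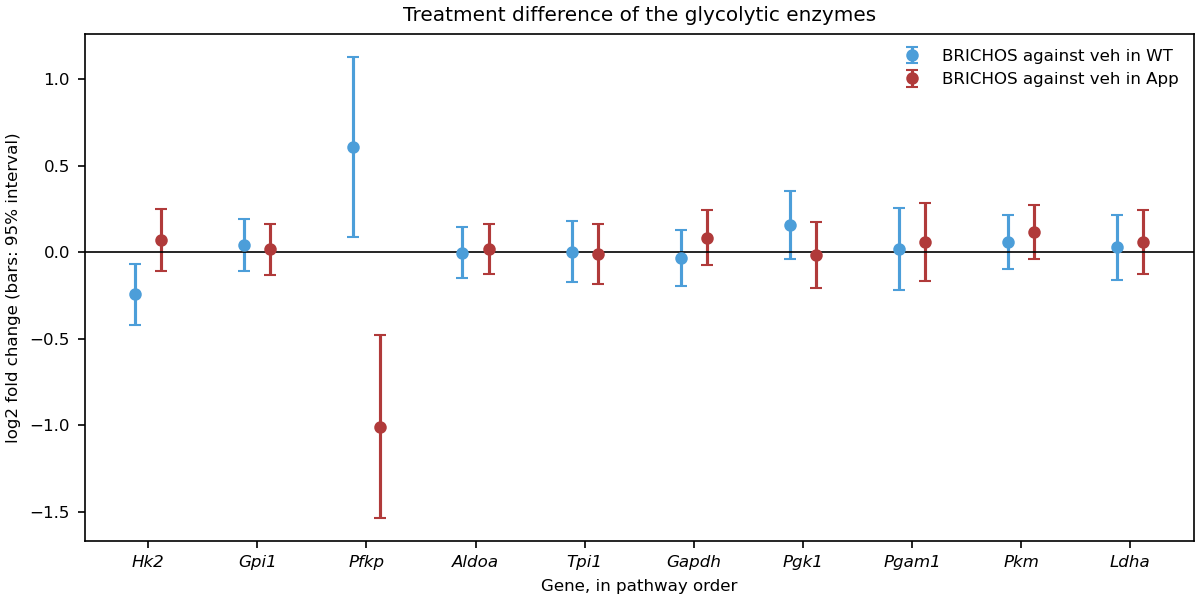
Log2 fold change of each enzyme between BRICHOS- and veh-treated mice, in WT and in AppNL-G-F mice. Points are fitted values and bars are 95% intervals (3 mice per group). The intervals of 8 genes include 0 in both strains, and Pfkp lies at 0.61 in WT and at -1.01 in AppNL-G-F mice.

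Whether BRICHOS acted differently in the 2 strains was tested as an interaction in the same fit. Its adjusted p-value was under 0.05 for 0 members (0.00648% of all genes, edgeR). At an unadjusted p-value under 0.05 the effect in AppNL-G-F mice was above that in WT mice for 1 member, Hk2, and below it for 1 member, Pfkp, against 5.23% and 9.54% of all genes. For Pfkp the difference was -1.62 ± 0.34 on the log2 scale (95% interval -2.36 to -0.88, adjusted p = 0.153), and DESeq2's Wald test gave -1.60 with an adjusted p of 0.00199. For Hk2 it was 0.31 ± 0.11 (95% interval 0.063 to 0.57, adjusted p = 0.251, edgeR). The differences of the 8 other members were between -0.17 and 0.12.

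Pfkp was set beside astrocyte markers in AppNL-G-F mice and choroid plexus markers in WT mice, and neither marker set went with Pfkp in both strains. In veh-treated AppNL-G-F mice Pfkp read 35.9, 30.8 and 23.0 CPM where the 8 astrocyte markers summed to 3952, 3495 and 1286 CPM, and in BRICHOS-treated AppNL-G-F mice it read 16.6, 12.0 and 16.1 CPM beside 1692, 637 and 1131 CPM. The library with the lowest astrocyte level of each of these groups also had the lowest Pfkp. In WT mice this did not hold, as the third veh-treated library had the lowest astrocyte level of all, 482 CPM, and the highest Pfkp of its group. The first BRICHOS-treated AppNL-G-F library, at 1692 CPM, had less Pfkp than every BRICHOS-treated WT library, where the astrocyte markers summed to 519 to 746 CPM. Of the 8 astrocyte markers 7, including Gfap and Slc1a2, were called upregulated in veh-treated AppNL-G-F mice, and 7 were lower after BRICHOS in that strain at an unadjusted p-value under 0.05, 0 of them at an adjusted one (edgeR). At the unadjusted threshold, 4 of 5 endothelial and 3 of 5 mural cell markers were also lower after BRICHOS in AppNL-G-F mice. With the astrocyte score as a covariate, the difference of Pfkp between veh-treated strains was 0.045 ± 0.39 (SE, adjusted p = 0.956, edgeR), a wider error than without the score. That between BRICHOS- and veh-treated AppNL-G-F mice was -0.61. The score did not overlap between the veh-treated strains (6.32 to 7.75 in AppNL-G-F and 4.97 to 5.43 in WT mice), so that this fit separates it poorly from the strain. In that fit, 0 members had an unadjusted p-value under 0.05 between BRICHOS- and veh-treated AppNL-G-F mice (edgeR). In WT mice Pfkp followed the choroid plexus markers, which summed to 873, 829 and 3806 CPM with veh and 3157, 3894 and 6603 CPM with BRICHOS, while Pfkp read 15.6, 15.5 and 23.8 and 21.7, 25.1 and 36.7 CPM. The ependymal markers were also higher with BRICHOS in WT mice. They summed to 11.6, 8.96 and 12.4 CPM with veh and 17.4, 25.1 and 33.9 CPM with BRICHOS. With the choroid plexus score as a covariate, an alternative chosen after these values were seen, the difference of Pfkp between BRICHOS-treated strains was -0.40 ± 0.35 (SE, adjusted p = 0.459, edgeR). Between BRICHOS- and veh-treated WT mice it was 0.29. This score did not overlap between the BRICHOS-treated strains either (4.24 to 4.97 in AppNL-G-F and 6.55 to 7.52 in WT mice). In veh-treated AppNL-G-F mice the library highest in choroid plexus markers, at 1905 CPM, had the lowest Pfkp. The source of the Pfkp transcripts was not tested.

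**Figure D4:**
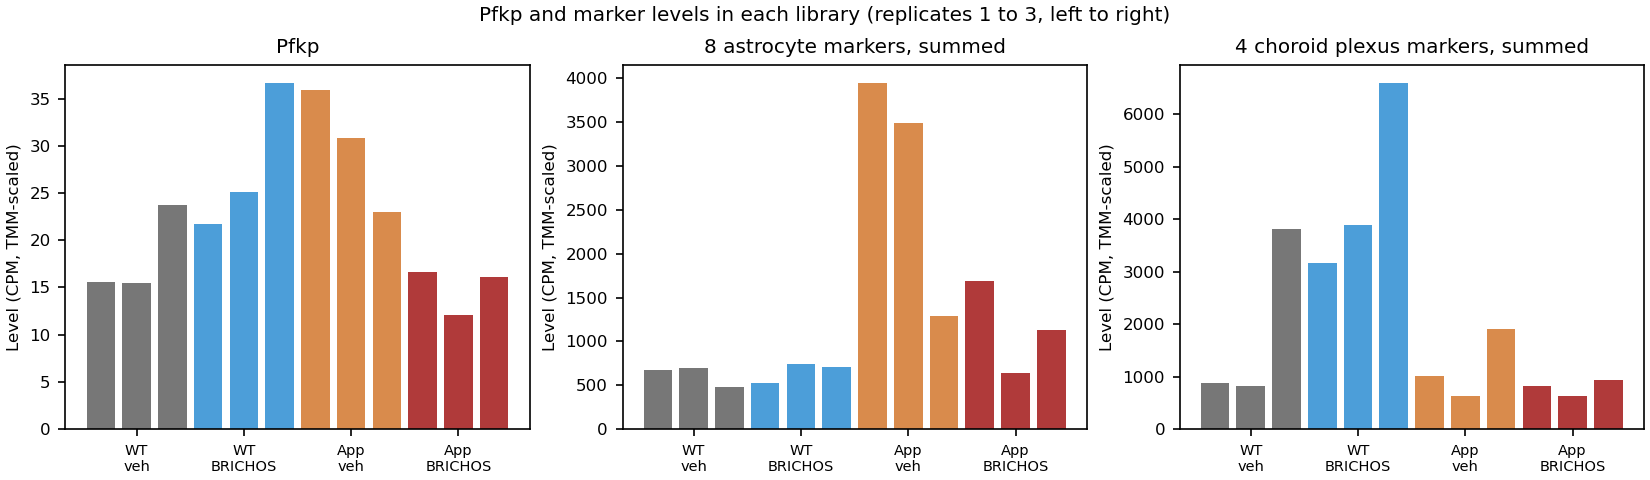
Pfkp, the sum of 8 astrocyte markers and the sum of 4 choroid plexus markers in each of the 12 libraries, in CPM scaled with TMM factors. Bars are single mice, with replicates 1 to 3 of a group from left to right. The first and second veh-treated AppNL-G-F libraries are high in Pfkp and in astrocyte markers, and the third BRICHOS-treated WT library is high in Pfkp and in choroid plexus markers.

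Several steps of glycolysis have more than one gene, and the share of a member in its step does not depend on the scaling of libraries. Shares were computed from levels per length and compared between 6 AppNL-G-F and 6 WT mice with an exact two-sided permutation test, adjusted over the 4 steps tested. Ldha made up 16.9, 19.2 and 18.2% of Ldha and Ldhb together in veh-treated WT libraries, 17.7, 17.0 and 18.6% in BRICHOS-treated WT, 35.0, 35.3 and 38.1% in veh-treated AppNL-G-F and 36.7, 40.2 and 38.3% in BRICHOS-treated AppNL-G-F libraries. All 6 AppNL-G-F libraries exceeded all 6 WT libraries, with means of 37.3% ± 2.0 (SD, n = 6) and 17.9% ± 0.898 (exact p = 0.00216, adjusted p = 0.00866). Ldhb, the subunit favoured in tissues that oxidize lactate, was itself downregulated, from 293 ± 7.06 to 247 ± 22.2 CPM with veh (-0.24 ± 0.072, adjusted p = 0.0197, edgeR) and from 304 ± 25.1 to 233 ± 4.3 CPM with BRICHOS (-0.39 ± 0.072, adjusted p = 0.00119). Per length, Ldhb remained the more abundant transcript of the pair in every library. In CPM, without division by length, Ldha was above Ldhb in every AppNL-G-F library and below it in every WT library. The order in AppNL-G-F mice thus depends on the annotated exon lengths, 3310 bases for Ldha and 1570 for Ldhb.

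Phosphofructokinase showed a different arrangement. The liver-type gene Pfkl was the main isoenzyme and was upregulated in both strain comparisons, from 107 ± 8.15 to 214 ± 5.39 CPM with veh (1.0 ± 0.086, adjusted p = 4.11e-06, edgeR) and from 97.2 ± 11.1 to 215 ± 16.4 CPM with BRICHOS (1.14 ± 0.086, adjusted p = 1.26e-06). Pfkp contributed 5.0, 4.59 and 7.28% of the step in veh-treated WT, 7.69, 7.18 and 9.1% in BRICHOS-treated WT, 4.91, 4.33 and 3.89% in veh-treated AppNL-G-F and 2.94, 2.32 and 2.71% in BRICHOS-treated AppNL-G-F libraries. Its share was lower in AppNL-G-F mice, with means of 3.52% ± 1.02 against 6.81% ± 1.71 (SD, n = 6, exact p = 0.00433, adjusted p = 0.00866). Within veh the difference was -1.25 percentage points, and the strains overlapped (p = 0.2, exact permutation test). Within BRICHOS it was -5.33 percentage points and the strains were separate (p = 0.1, exact permutation test). With 3 against 3 mice the exact p cannot fall below 0.1.

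For hexokinase and aldolase the test did not separate the strains. Hk2 made up 48.7% ± 2.41 of Hk1, Hk2 and Hk3 in WT and 51.1% ± 2.39 in AppNL-G-F mice (SD, n = 6, exact p = 0.134, adjusted p = 0.179). Hk3 was slightly lower in veh-treated AppNL-G-F mice (-0.24 ± 0.055, adjusted p = 0.00509, edgeR) and Hk1 in BRICHOS-treated ones (-0.37 ± 0.079, adjusted p = 0.00301, edgeR). Aldoa made up 84.0% ± 3.94 of Aldoa and Aldoc in WT and 78.2% ± 12.0 in AppNL-G-F mice (SD, n = 6, exact p = 0.314, adjusted p = 0.314), with differences of -15.1 percentage points within veh and 3.49 within BRICHOS. Aldoc, the aldolase of brain, was upregulated with veh, where its libraries read 86.8, 88.1 and 56.1 CPM in WT and 653, 634 and 203 CPM in AppNL-G-F mice (2.69 ± 0.49, adjusted p = 0.0013, edgeR), and its difference with BRICHOS was not called (0.91 ± 0.47, adjusted p = 0.142). As with Pfkp, the third veh-treated AppNL-G-F library, the lowest of that group in astrocyte markers, was also the lowest in Aldoc.

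**Figure D5:**
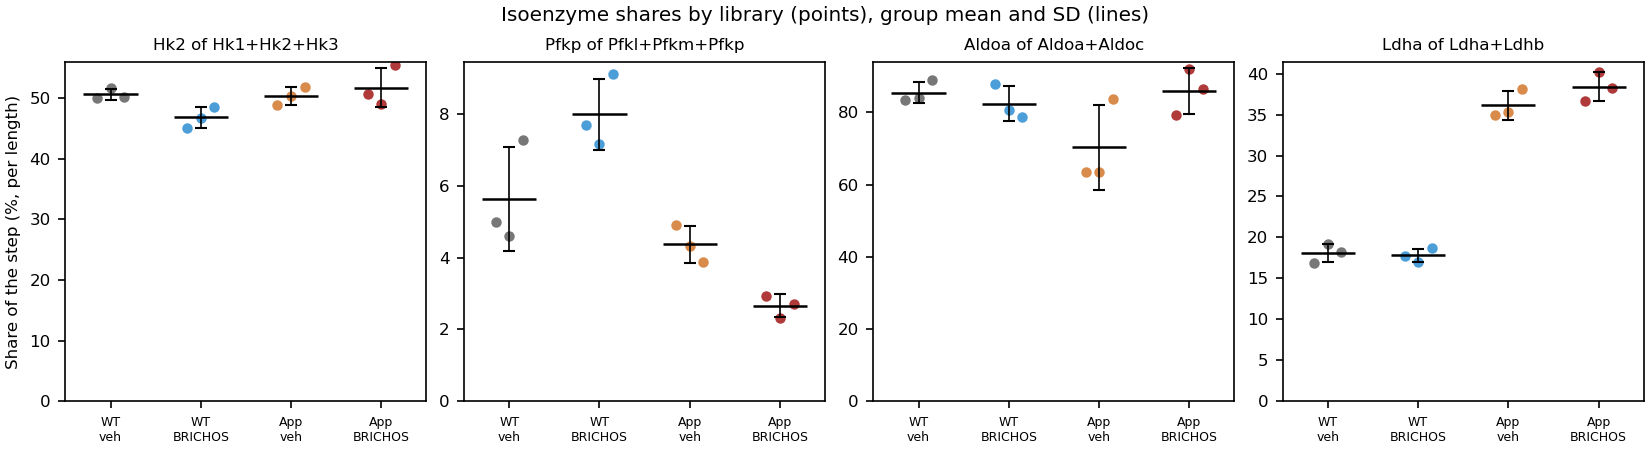
Share of Hk2, Pfkp, Aldoa and Ldha in the summed level per length of the genes of their step, in percent, for each library. Points are mice, the wide line is the group mean and the bars are 1 SD (n = 3). The Ldha shares of WT mice lie between 16.9% and 19.2% and those of AppNL-G-F mice between 35.0% and 40.2%.

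Among the other genes of glycolysis, 11 of 20 listed isoenzymes passed the filter. With veh, 4 were called upregulated and 3 downregulated (edgeR, adjusted p under 0.05 over all genes), against 20.1% and 16.9% of all tested genes. With BRICHOS the counts were 2 and 2, against 20.8% and 21.8% of all genes. The median log2 fold changes of the isoenzymes were 0.13 and -0.11, against -0.022 and -0.042 over all genes. Pfkl and Eno1 were the genes upregulated in both. Eno1, which encodes enolase, the step between the products of Pgam1 and Pkm, rose from 154 ± 14.9 to 296 ± 16.9 CPM with veh (0.95 ± 0.083, adjusted p = 4.7e-06, edgeR) and stood at 164 ± 15.3 and 284 ± 9.11 CPM with BRICHOS (0.79 ± 0.083, adjusted p = 1.73e-05). With it, a gene of every step from the isomerase to lactate dehydrogenase was upregulated in AppNL-G-F mice on both treatments, while Hk1, Hk2 and Hk3 were called upregulated on neither.

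All 12 listed sugar, lactate and pyruvate transporters passed the filter, and 8 were called upregulated and 1 downregulated with veh, against 20.1% and 16.9% of all genes. With BRICHOS the counts were 7 and 1, against 20.8% and 21.8%. The transporters had medians of 0.64 and 0.41, against -0.022 and -0.042 over all genes. The gene that fell was Slc2a5, which encodes a fructose transporter known in microglia, from 454 ± 33.5 to 227 ± 5.42 CPM with veh (-1.0 ± 0.057, adjusted p = 1.52e-07, edgeR) with a log2 fold change of -0.86 with BRICHOS. Slc16a3, the lactate exporter of glycolytic cells, rose from 50.3 ± 4.4 to 142 ± 2.67 CPM (1.5 ± 0.11, adjusted p = 8.89e-07, edgeR), and its log2 fold change with BRICHOS was 1.7. The hexose transporter gene Slc2a6 rose from 6.1 ± 0.398 to 39.8 ± 5.27 CPM (2.7 ± 0.22, adjusted p = 3.11e-06, edgeR). The monocarboxylate transporter gene Slc16a7 (0.66 ± 0.084) and Mpc1 (0.63 ± 0.11), a subunit of the mitochondrial pyruvate carrier, rose less.

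Of 14 regulators of glycolytic flux, 5 were called upregulated and 0 downregulated with veh, against 20.1% and 16.9% of all genes. With BRICHOS the counts were 5 and 2, against 20.8% and 21.8%. The regulators had medians of 0.15 and 0.033, against -0.022 and -0.042 over all genes. Tigar, a phosphatase that breaks down an activator of phosphofructokinase, rose from 6.9 ± 0.763 to 20.6 ± 0.162 CPM (1.58 ± 0.12, adjusted p = 1.13e-06, edgeR). Pfkfb3, which makes that activator, rose from 252 ± 23.6 to 474 ± 59.0 CPM (0.91 ± 0.12, adjusted p = 0.000101, edgeR). Genes known to act in opposite directions on phosphofructokinase were thus both upregulated. The pyruvate dehydrogenase kinases Pdk1 (0.37 ± 0.064) and Pdk3 (0.40 ± 0.065) rose to a smaller extent. Pdk4, which restrains pyruvate oxidation, was upregulated with veh (4.14 ± 0.866 to 7.47 ± 2.91 CPM, 0.86 ± 0.31, adjusted p = 0.0462, edgeR) and downregulated with BRICHOS (6.46 ± 0.476 to 3.33 ± 1.14 CPM, -0.95 ± 0.31, adjusted p = 0.0278).

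In gluconeogenesis and the pentose phosphate branch 10 of 13 genes passed the filter. With veh, 5 were called upregulated and 0 downregulated, against 20.1% and 16.9% of all genes. With BRICHOS the counts were 6 and 1, against 20.8% and 21.8%. The medians of this list were 0.26 and 0.38, against -0.022 and -0.042 over all genes. The changes of the genes in this list were smaller than those of the 8 glycolytic enzymes. Transketolase (Tkt) rose by 0.47 ± 0.053 on the log2 scale (adjusted p = 3.23e-05, edgeR), phosphogluconate dehydrogenase (Pgd) by 0.43 ± 0.064, Pgls by 0.49 ± 0.082, the phosphatase gene G6pc3 by 0.55 ± 0.069 and G6pdx, the entry enzyme of the branch, by 0.27 ± 0.042.

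All 17 listed genes of the HIF pathway and its other known targets passed the filter. With veh, 8 were called upregulated and 2 downregulated, against 20.1% and 16.9% of all genes. With BRICHOS the counts were 10 and 2, against 20.8% and 21.8%. The medians of this list were 0.27 and 0.46, against -0.022 and -0.042 over all genes. Its log2 fold changes reached from -0.99 to 4.83 with veh and from -1.31 to 5.23 with BRICHOS, and 10 and 11 of the 17 were positive. The genes named next are those with the lowest p in veh-treated mice, all of which rose, so they do not stand for the whole list. Hif1a, the oxygen-regulated subunit, rose from 147 ± 1.89 to 704 ± 34.2 CPM (2.26 ± 0.060, adjusted p = 8.74e-10, edgeR), and from 139 ± 8.1 to 789 ± 35.7 CPM with BRICHOS (2.5 ± 0.061, adjusted p = 5.26e-10). Egln3, a prolyl hydroxylase that marks HIF for degradation and is itself induced by it, rose from 2.88 ± 1.06 to 81.1 ± 3.98 CPM (4.83 ± 0.19, adjusted p = 8.22e-09, edgeR). Vegfa, a secreted angiogenic factor, rose from 14.5 ± 1.85 to 94.1 ± 11.5 CPM (2.7 ± 0.28), and the mitophagy receptor gene Bnip3 (0.88 ± 0.095) and the collagen prolyl hydroxylase gene P4ha1 (0.38 ± 0.084) rose less. These values are of transcripts, and protein levels were not measured here. BRICHOS against veh gave 0 calls at an adjusted p-value under 0.05 (edgeR) in any of these 5 lists in either strain. With an unadjusted p-value under 0.05 in AppNL-G-F mice, 0 of 11 isoenzymes were higher and 3 lower, 0 of 12 transporters were higher and 1 lower, 2 of 14 flux regulators were higher and 2 lower, 1 of 10 genes of gluconeogenesis and the pentose phosphate branch was higher and 1 lower, and 1 of 17 HIF genes was higher and 2 lower, against 3.18% and 7.67% of all genes. In WT mice 2 isoenzymes and 2 transporters were higher and 4 HIF genes were lower, with 0 in the other lists and directions, against 6.55% and 4.83% of all genes.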

How the data were processed

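Microglia were isolated with CD11b beads from papain-digested cortex, and poly(A) RNA was sequenced with Illumina Stranded mRNA Prep. The authors trimmed reads with Cutadapt, mapped them with STAR (2.6.1d per the submitters' processing notes) to GRCm38, and deposited raw counts per gene made with featureCounts 1.5.1. The strand setting and the handling of reads with several matches are not given in the sources used here. Of 55487 genes, 26314 had no count, and 55227 identifiers were paired with a symbol through the annotation. All 12 libraries were fitted together in edgeR 4.0.16 (R 4.3.3), with filterByExpr at a minimum count of 10, TMM factors, the quasi-likelihood test and Benjamini-Hochberg adjustment over 15425 genes. The functions were first tested on simulated data. Levels are CPM with TMM factors, and lengths are unions of annotated exons. A floor of 3 counts corresponds to 0.169 to 0.227 CPM, covering counting error only, and every member exceeded it in every library. The edgeR p-values rest on the spread between mice within groups of 3, estimated together over all 4 groups and with information shared across genes. Isoenzyme shares were compared with exact permutation tests (scipy 1.17.1), the smallest possible p being 0.00216 for 6 against 6. Promoter windows came from RefSeq (GRCm38.p6), and copies of the genes were found with blast 2.17.0 (at least 95% identity over 200 bases).

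The members, the gene lists and the markers were chosen with earlier results of these data known. Named were all members, in each list at most the 5 genes with the lowest p in veh-treated mice, and the isoenzymes of a member's step. Alternatives were other scaling factors, DESeq2 1.42.0, the compared groups alone, no filter, a replicate block, an astrocyte score as covariate and leaving out each library, with a choroid plexus score added after the data were seen. Libraries within a group differed by more than sampling noise. One further gene of the microglial marker list is not reported here, so that counts over that list do not cover the whole of it.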

Additional observations from a re-analysis of the deposited data

Results flagged for a closer look

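The treatment effect of 2 members differed between the strains at an unadjusted p-value under 0.05. For Pfkp the effect of BRICHOS in AppNL-G-F mice minus that in WT mice was -1.62 on the log2 scale (adjusted p = 0.153, edgeR's quasi-likelihood test), with lower levels after BRICHOS in 3 of 3 AppNL-G-F libraries than in any veh-treated one and higher levels on average in WT mice. For Hk2 the difference was 0.31 (adjusted p = 0.251, edgeR), with lower levels in 3 of 3 BRICHOS-treated WT libraries. Neither passed the adjustment over all genes in edgeR.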

How the results depend on the processing

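Over all alternatives and results tested, a call was gained 10 times and lost 11 times, and 3 values reversed. Under library totals without factors, Hk2 between BRICHOS-treated strains was -0.14 instead of 0.13. Within veh-treated mice the difference in share was -0.246 percentage points for Hk2, and within BRICHOS-treated mice it was 3.49 for Aldoa, both opposite to all mice together. The shares of Pfkp (-1.25 and -5.33) and Ldha (18.05 and 20.6) kept their direction within veh and within BRICHOS, where 3 against 3 mice could not reach the threshold. The count of members called between BRICHOS and veh in AppNL-G-F mice was 1 with DESeq2, on all libraries and on the compared groups, instead of 0. The count called for the difference between the treatment effects was 1 with DESeq2 and 1 without a filter on low counts, and 0 to 1 when single libraries were left out. It was 1 without the third veh-treated WT library or the third veh-treated AppNL-G-F library. In each case the called member was Pfkp (adjusted p = 0.00199 to 0.0498 in DESeq2 or edgeR). The cause of these changes was not tested.

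Pfkp between veh-treated strains was also not called under library totals (0.52, adjusted p = 0.0994, edgeR). Hk2 between veh-treated strains gained a call with upper-quartile factors (-0.24, adjusted p = 0.0384), library totals (-0.38, adjusted p = 0.00287) and without the first veh-treated WT library (-0.25, adjusted p = 0.0463). The replicate numbers are shared between groups, but same-numbered libraries did not deviate together in every pair (correlations of -0.015 to 0.23), so that they were not taken as pairs. With the replicate block, Hk2 between veh-treated strains was called (-0.19, adjusted p = 0.0234, edgeR), and no other member's call changed.

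Over all genes, BRICHOS against veh gave 1 call in AppNL-G-F mice with edgeR, 116 or 56 with DESeq2, 25 without a filter and 0 to 162 when single libraries were left out (162 without the third veh-treated AppNL-G-F library). In WT mice it gave 0, 80 or 135, 12 and 0 to 5, and for the difference of effects 1, 239, 107 and 0 to 88. The strain gave 5710 calls with veh (2081 with the astrocyte score) and 6560 with BRICHOS (3083 with the choroid plexus score). The 8 upregulated members had at least 271 counts in every library and Pfkp at least 188.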

Other observations

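Values of the same sign as those of Pfkp were also seen for other genes of energy metabolism, none of them called for treatment. In AppNL-G-F mice the log2 fold change between BRICHOS and veh was -1.42 for Aldoc (adjusted p = 0.327, edgeR), -0.95 for Pfkm (adjusted p = 0.294), -1.16 for Pdk4 (adjusted p = 0.291) and -1.06 for Slc2a4, which encodes a glucose transporter (adjusted p = 0.395). Between veh-treated strains the same genes stood at 2.69, 1.25, 0.86 and 1.16. The genes were picked after their values were seen, and both comparisons share the veh-treated AppNL-G-F libraries. In these libraries the astrocyte markers summed to 3952, 3495 and 1286 CPM, and their part in the values was not tested.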
